A study of Mus musculus with 9 samples.

Results

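The 10 genes of O-glycan building were followed here, by symbol, through single-nucleus RNA sequencing of mouse brain. They are C1galt1, C1galt1c1, B3gnt3, B3gnt2, B4galt1, Gcnt1, Gcnt2, St3gal1, St3gal2 and St6galnac3, that is 10 of 31053 genes listed, which encode enzymes that build, branch, lengthen or cap mucin-type O-glycans, and 1 chaperone. The tissue was cortex and hippocampus, dissected from 9 male wild-type C57BL/6 mice, each giving 1 library. Young AAV-EGFP mice were 5 months old, and aged AAV-EGFP and aged AAV-B3GNT3 mice were 19 months old, with 3 mice in each group. Every mouse had been injected 8 weeks earlier with an adeno-associated virus of the PHP.V1 capsid, so there was no uninjected group. In the virus a short CLDN5 promoter, which is active in endothelial cells, drove EGFP in the control groups or EGFP joined to B3GNT3 in the treated group. Ageing below means aged AAV-EGFP against young AAV-EGFP, and treatment means aged AAV-B3GNT3 against aged AAV-EGFP, so both comparisons share the aged AAV-EGFP mice. The labels give each library as 1 mouse, and fewer cells with a transcript and less of it per cell cannot be told apart in summed counts.

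Mucin-type O-glycans are sugar chains that start with an N-acetylgalactosamine on serine or threonine. C1GALT1 adds galactose to give core 1, and it folds only with its chaperone, C1GALT1C1 (COSMC). From core 1 the chain can be branched to core 2 by GCNT1, lengthened by B3GNT and B4GALT enzymes, which add N-acetylglucosamine and galactose in turn, and ended with sialic acid by ST3GAL and ST6GALNAC enzymes. B3GNT3 lengthens core 1 itself. Several of these enzymes also act on N-glycans or glycolipids, so their transcripts do not report on O-glycans alone. On brain endothelial cells (BECs) such glycans coat proteins that face the blood.

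The libraries held 47332047 to 79964605 unique molecular identifiers (UMIs, counted RNA molecules). Of 77823 barcodes, 70368 were kept and 65849 fell in named classes. Classes are clusters named from marker genes, so each name below means nuclei like that cell type. In all, 10 classes had enough nuclei in every mouse to be tested: oligodendrocytes (20304 nuclei), excitatory neurons (19400), astrocytes (8493), inhibitory neurons (8255), oligodendrocyte precursors (OPCs, 2478), microglia (2142), fibroblasts (1750), dentate gyrus granule neurons (1242), pericytes or smooth muscle cells (938) and BECs (718). BECs passed with 9 of 9 markers but gave only 45 to 115 nuclei and 109381 to 263830 UMIs per mouse. Levels are given as CPM (the usual counts-per-million scale, over the summed UMIs of the class in that mouse), ± SD over mice. For a comparison of groups the totals were TMM-scaled, a scaling that evens out differences in RNA composition. Where 9 values are quoted they run young AAV-EGFP, aged AAV-EGFP, aged AAV-B3GNT3, replicates 1 to 3 in each. Free RNA, which leaks from broken nuclei into every droplet, was estimated from neuronal genes in other classes, or oligodendrocyte genes in neurons. The estimated share differed between groups. In excitatory neurons it was 8.56 to 12.2% in aged AAV-EGFP, below every other library (16.4 to 18.6% in the young mice and 13.2 to 16.6% in the treated ones), and in inhibitory neurons it was 10.4 to 13.6%, below the young mice (14.4 to 17.2%) but overlapping the treated ones (13.4 to 13.97%). It was 13.4 to 22.9% of astrocyte UMIs in aged AAV-EGFP, 22.5 to 24.4% in young AAV-EGFP and 18.4 to 21.4% in aged AAV-B3GNT3.

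B3gnt3, the gene delivered by the virus, was sparse in these libraries. The deposited matrices held 95 B3gnt3 UMIs in all barcodes. Young AAV-EGFP libraries held 31 of them, aged AAV-EGFP ones 26 and aged AAV-B3GNT3 ones 38. Each library had 5 to 17. B3gnt3 (ENSMUSG00000031803) lies on GRCm38 chromosome 8 at 71690756 to 71701789 on the minus strand. No EGFP sequence is among the listed genes, and whether RNA from the virus would be counted under B3gnt3 was not determined. What share of the counts came from the mouse gene was therefore not determined.

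In BECs, B3gnt3 gave 6, 3 and 0 UMIs in the young AAV-EGFP mice. Aged AAV-EGFP mice gave 0, 0 and 0. Aged AAV-B3GNT3 mice gave 0, 2 and 3. Of the 9 mice, 2 young and 2 treated ones had any B3gnt3 UMI in BECs, and the groups overlapped at 0. Summed over 3 mice, the level was 13.4 CPM in young AAV-EGFP (exact 95% Poisson interval 6.14 to 25.5). It was 9.27 CPM in aged AAV-B3GNT3 (3.01 to 21.6). In aged AAV-EGFP it was 0 of 407690 UMIs (0 to 9.05). A floor of 3 counts would be 7.36 CPM there, which is lower than the upper end of that interval. Over the group, the treated point estimate was 1.26 times that floor and the young one 1.83 times, and neither ratio is a bound once the counting error of the numerator is taken in. These intervals and floors cover counting error only.

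The comparison of B3gnt3 between groups did not resolve a difference. The mean over mice was 9.74 ± 10.2 CPM in aged AAV-B3GNT3 and 0 in aged AAV-EGFP, a difference of 9.74 CPM (two-sided exact permutation test, p = 0.4, n = 3). Young AAV-EGFP had 12.1 ± 11.4 CPM, so that aged AAV-EGFP lay 12.1 CPM lower (exact permutation test, p = 0.4, n = 3). With 3 mice against 3 the test cannot give a p below 0.1. By counts alone, which compare these libraries and not the conditions, the interval of the ratio of treated to aged AAV-EGFP reached down to 0.693, and that of aged to young AAV-EGFP reached from 0 up to 0.832. The ratio of treated to young was 0.690 with an interval of 0.182 to 2.29.

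**Figure D1:**
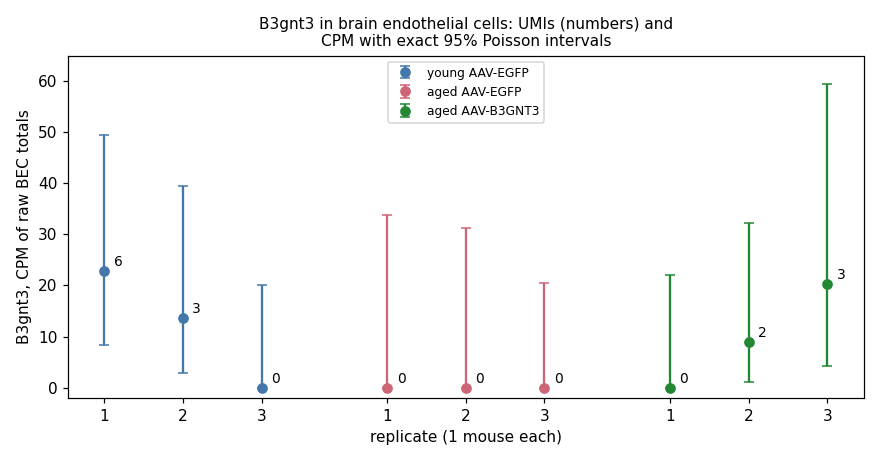
B3gnt3 level in BECs of each mouse (CPM of the raw BEC total, vertical axis) by group and replicate, with exact 95% Poisson bars and the UMI count beside each point. Of 9 mice, 5 sit at 0, among them all 3 aged AAV-EGFP mice, and the bars of all groups overlap.

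Beyond BECs, B3gnt3 was sparser still per UMI. BECs held 14 UMIs in 14 of 718 nuclei (1.95%, exact binomial interval 1.07 to 3.25%). Microglia, taken as the class that should lack it, had 0 in 2142 nuclei (exact binomial interval 0 to 0.172%, with the floor of 3 counts at 0.140%). Their median was 1674 UMIs per nucleus against 1874 in BECs. Fibroblasts also had 0. Excitatory neurons held 42 UMIs in 19400 nuclei, 0.206% of nuclei, at a much greater median depth of 10800 UMIs. Of those 42, the upper-layer cortical neuron-like cluster held 19. Oligodendrocytes held 7, pericytes or smooth muscle cells 3, dentate gyrus granule neurons 2, and OPCs, astrocytes and inhibitory neurons 1 each. With each nucleus thinned to 1000 UMIs, 0.825% of BECs and 0.0186% of excitatory neurons held one, after 50 and 1 shallower nuclei were left out. In BECs the free-RNA estimate was only 0.0846 UMIs in all against 14 observed. Nuclei with a UMI numbered 9 of 276 in young AAV-EGFP BECs and 5 of 244 in aged AAV-B3GNT3 BECs. There were 0 of 198 in aged AAV-EGFP BECs (exact binomial interval 0 to 1.85%, with the floor of 3 counts at 1.52%).

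Across classes, the other genes had distinct orders of level. For each gene the 10 classes were ranked by mean CPM and each class was compared with the next one over the 9 mice by an exact sign-flip test, adjusted over 90 pairs. Of the 90 neighbouring pairs 25 passed. The log value of a mouse at 0 counts follows the class total rather than the gene, so the 5 steps of B3gnt3 that passed, that of Gcnt1 from BECs to fibroblasts (with 4 of 9 mice at 0 in each class) and that of St3gal1 from pericytes or smooth muscle cells to OPCs (4 and 3 mice at 0) are not read as differences. Below, 2 neighbours are said to differ only where this test passed, those steps left aside. For St3gal2 0 of 9 steps passed. The order was taken from the same values and classes further apart were not compared. A gene whose level changes gradually over the order can therefore have no step that passes.

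**Figure D2:**
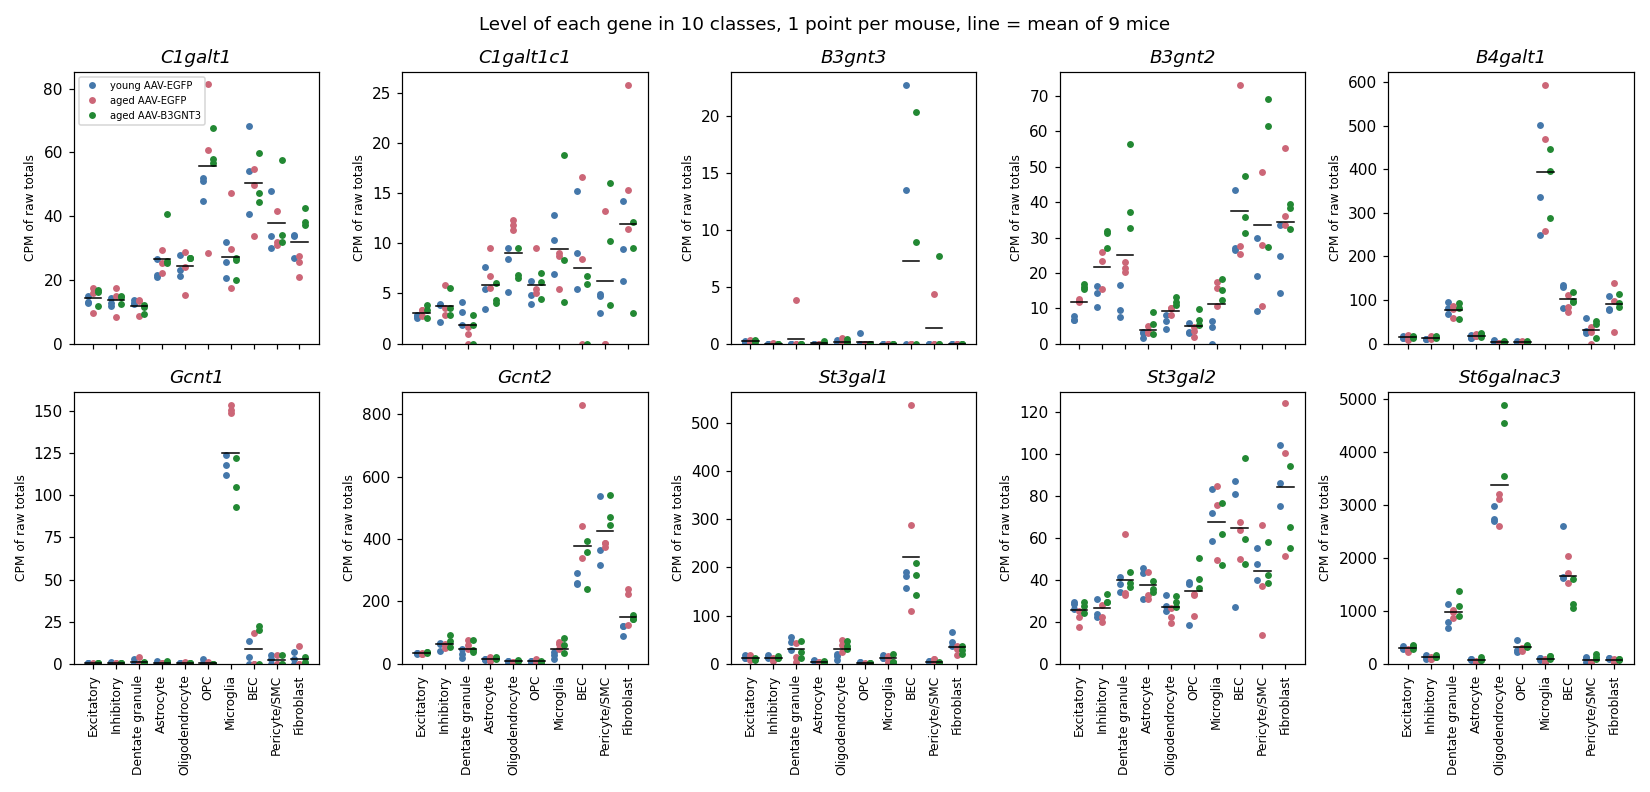
Level of each gene (CPM of raw class totals, vertical axis, own linear scale per panel) in 10 classes, with 1 point per mouse coloured by group and a line at the mean of 9 mice. Gcnt1 and B4galt1 peak in microglia, St3gal1 in BECs, Gcnt2 in pericytes or smooth muscle cells and BECs, and St6galnac3 in oligodendrocytes.

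Differences between groups were counted over combinations of gene and class. Of 100 combinations of gene and class, 65 had enough counts to be tested, from 10 classes for Gcnt2, St3gal2 and St6galnac3 down to 1 for Gcnt1 and 0 for B3gnt3. A call is an adjusted p under 0.05 in the quasi-likelihood test of edgeR, adjusted over all genes of the class. With ageing, 9 of 65 were called (13.8%), 4 higher and 5 lower, in 6 of the 9 genes tested, where all tests of all genes gave 9.73%. Their median log2 difference was 0.01, as against 0.01 over all tests. Unadjusted p-values were under 0.05 for 21 of 65, where all tests of all genes gave 26.2%. With treatment, 3 of 65 were called (4.62%), all higher and all St6galnac3, where all tests gave 3%. The median log2 difference was 0.06, against 0.01. Of the 65, 16 had an unadjusted p under 0.05, where all tests gave 19.1%. After the free-RNA estimate was subtracted, 2 of 53 remained called with ageing and 0 with treatment by edgeR, with 12 and 7 at an unadjusted p under 0.05. All 3 treatment calls had too few counts left and were not tested then. The same held with ageing for B4galt1 in oligodendrocytes and for St6galnac3 in astrocytes, fibroblasts and pericytes or smooth muscle cells. The share of all genes called after subtraction was not counted, so the drop in calls is not read as particular to these genes.

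Classes differed in how many genes of any kind were called. With ageing, excitatory neurons had 14.7% of genes called, inhibitory neurons 3.85% and dentate gyrus granule neurons 0.939%. The share was 12.3% in astrocytes, 19.8% in oligodendrocytes, 4.10% in OPCs and 10.9% in microglia. BECs had 7.33%, pericytes or smooth muscle cells 11.3% and fibroblasts 5.98%. With treatment they were 2.60% in excitatory neurons, 0.569% in inhibitory neurons and 0% in dentate gyrus granule neurons, where 918 of 9161 genes had an unadjusted p under 0.05. They were 5.40% in astrocytes, 7.54% in oligodendrocytes, 1.15% in OPCs and 4.38% in microglia. BECs had 3.30%, pericytes or smooth muscle cells 2.81% and fibroblasts 1.44%. The members called with ageing were 2 of 8 tested in excitatory neurons, 2 of 8 in oligodendrocytes, 1 of 8 in astrocytes, 1 of 5 in BECs, 1 of 4 in pericytes or smooth muscle cells and 2 of 7 in fibroblasts. With treatment there was 1 each in astrocytes, microglia and pericytes or smooth muscle cells.

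**Figure D3:**
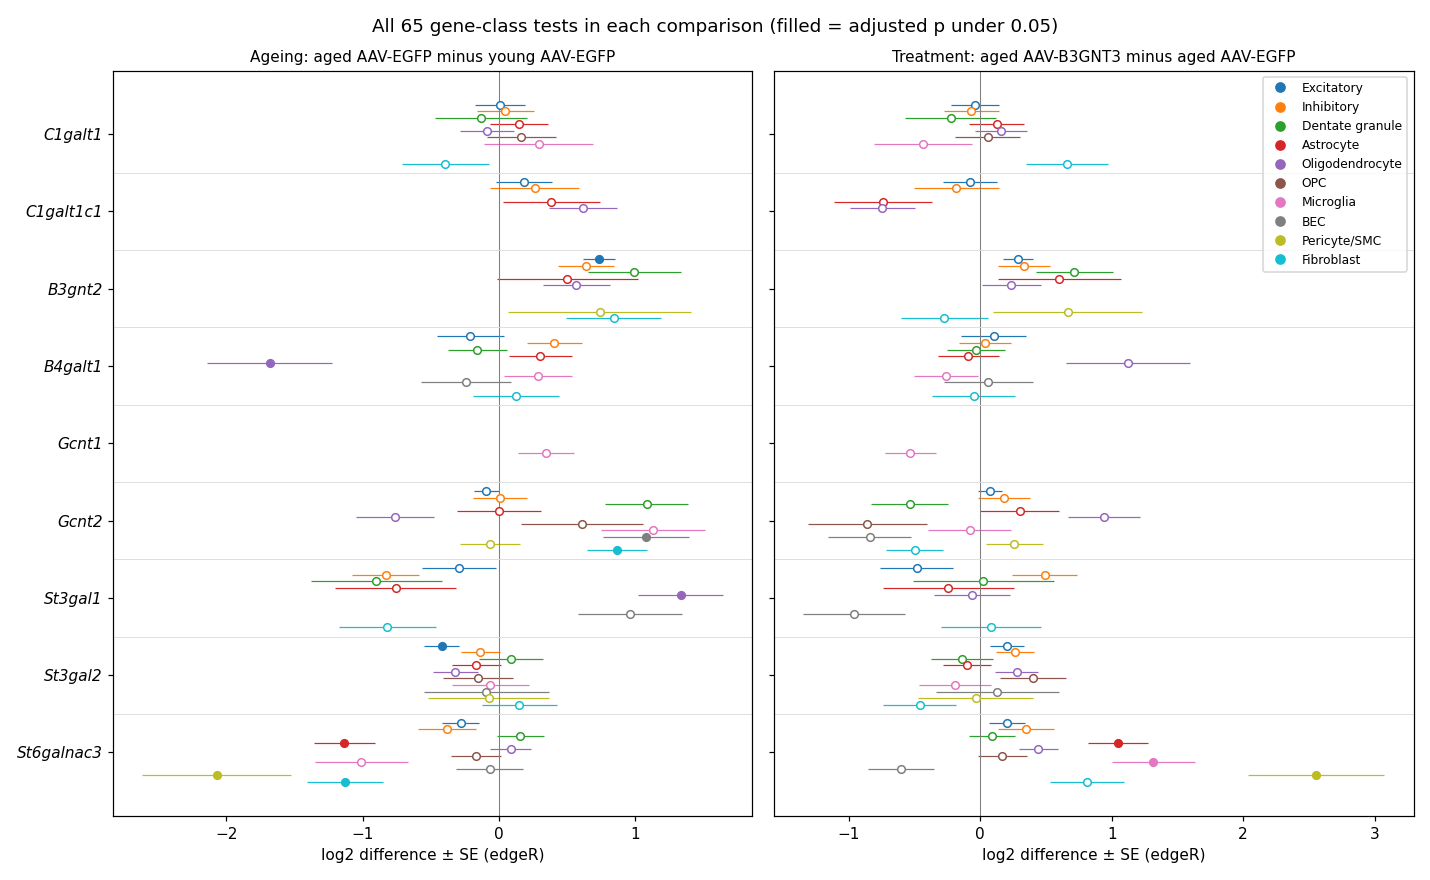
Log2 difference ± SE from edgeR (horizontal axis) for the 65 tested combinations of gene and class, with ageing on the left and treatment on the right, coloured by class and filled where the adjusted p is under 0.05. B3gnt2 lies above 0 in all 7 classes tested with ageing, and the filled points on the right are all St6galnac3.

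C1galt1, the core 1 galactosyltransferase (ENSMUSG00000042460, GRCm38 chromosome 6, 7844842 to 7875687), was found in every class. It was highest in OPCs at 55.6 ± 14.8 CPM (611 UMIs, n = 9) and BECs at 50.4 ± 10.3 CPM (83 UMIs), which did not differ from each other in the test. Pericytes or smooth muscle cells had 37.7 CPM, fibroblasts 31.9, microglia 27.3, astrocytes 26.4 and oligodendrocytes 24.5. The 3 neuron classes lay lowest, at 14.3 CPM in excitatory neurons, 13.6 in inhibitory neurons and 11.97 in dentate gyrus granule neurons. The step from oligodendrocytes to excitatory neurons was the only one that differed, higher in 9 of 9 mice.

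In BECs C1galt1 was too sparse for the fit across genes. Its UMI counts were 18, 9 and 10 in the young AAV-EGFP group, 6, 4 and 9 in the aged AAV-EGFP group and 10, 10 and 7 in the aged AAV-B3GNT3 group. In CPM these were 68.2, 40.6 and 54.2, then 54.9, 33.9 and 49.9, then 59.7, 44.6 and 47.4, so the 3 groups overlapped. In the 8 classes tested C1galt1 had no call. Its smallest p was in fibroblasts with treatment, at 40.1 ± 2.78 CPM in aged AAV-B3GNT3 and 26.0 ± 3.998 CPM in aged AAV-EGFP (log2 difference 0.66, SE 0.31, edgeR adjusted p = 0.306).

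C1galt1c1, the chaperone (ENSMUSG00000048970, GRCm38 chromosome X, 38630785 to 38635087), was sparse everywhere. Means ran from 11.9 ± 6.44 CPM in fibroblasts (56 UMIs) through 9.39 in microglia and 9.07 ± 2.53 in oligodendrocytes (396 UMIs) to 1.84 in dentate gyrus granule neurons (24 UMIs). BECs gave 13 UMIs, 7.496 ± 5.76 CPM. The step from OPCs (5.87 CPM) to inhibitory neurons (3.80 CPM) was the only one that differed. In oligodendrocytes the aged AAV-EGFP mice stood above the other groups. Their values were 11.6, 12.6 and 12.4 CPM, against 9.65, 5.27 and 8.82 in the young AAV-EGFP mice and 9.08, 6.55 and 6.33 in aged AAV-B3GNT3. Neither of these groups overlapped with them, but neither difference passed (edgeR log2 0.62, SE 0.25, adjusted p = 0.0970 with ageing, and −0.75, SE 0.25, adjusted p = 0.0816 with treatment).

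B3gnt2, which adds N-acetylglucosamine to make poly-N-acetyllactosamine on N- and O-linked chains, was higher with age in excitatory neurons. In excitatory neurons it had 7.96, 7.40 and 7.12 CPM in young AAV-EGFP. Aged AAV-EGFP had 12.6, 12.97 and 11.8 CPM, and aged AAV-B3GNT3 15.01, 15.8 and 14.7 CPM. No mouse of one group overlapped with another group. With ageing the mean rose from 7.49 ± 0.426 to 12.4 ± 0.600 CPM (log2 difference 0.73, SE 0.12, edgeR adjusted p = 0.00577, n = 3). The call held with free RNA subtracted (adjusted p = 0.00743) and without any 1 library (adjusted p up to 0.0413). The 7 microglia markers in excitatory neurons summed to 27.2 to 38.3 CPM in the young mice, 41.2 to 43.5 in aged AAV-EGFP and 31.8 to 41.3 in the treated mice, with none at 0, and their part in the call was not tested. With treatment the mean was 15.2 ± 0.609 CPM, a difference that was not called (log2 0.28, SE 0.11, edgeR adjusted p = 0.164). Over whole libraries, all barcodes counted, B3gnt2 made up 7.91 to 9.07 CPM in the young AAV-EGFP group and 12.2 to 15.6 in the aged AAV-EGFP group. It made up 17.7 to 20.3 CPM in the aged AAV-B3GNT3 group. The mix of classes in a library also enters this level, and its part was not tested.

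The same direction stood in the other classes tested, without a call. With ageing the fitted difference in B3gnt2 was positive in each of the 7 classes tested. In inhibitory neurons it was 22.3 ± 5.36 against 14.2 ± 3.52 CPM (log2 0.64, SE 0.21, edgeR adjusted p = 0.0863), with overlapping groups. That difference was called with no filter on low counts (edgeR adjusted p = 0.0141) and without aged AAV-EGFP replicate 1 (0.0226). In oligodendrocytes it was 9.66 ± 1.27 against 6.37 ± 1.83 CPM (log2 0.57, SE 0.24, adjusted p = 0.113). In fibroblasts it was 43.5 ± 11.6 against 25.6 ± 10.4 CPM (log2 0.84, SE 0.35, adjusted p = 0.165). In dentate gyrus granule neurons the young AAV-EGFP mice had 16.9, 9.91 and 8.06 CPM, aged AAV-EGFP 21.3, 25.6 and 21.2 CPM, and aged AAV-B3GNT3 53.9, 35.6 and 31.9 CPM. The groups did not overlap there, and neither ageing (log2 0.99, SE 0.34, edgeR adjusted p = 0.183) nor treatment (log2 0.72, SE 0.29, adjusted p = 0.400) passed.

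Within neurons B3gnt2 was spread unevenly. Of 13 clusters it was highest in the indirect-pathway striatal-like cluster, which has Rarb, Drd2 and Rgs9 as leading genes, at 40.1 ± 13.9 CPM of raw totals. The labels name cortex and hippocampus, yet this cluster made up 28.6 to 58.2% of inhibitory nuclei in young AAV-EGFP and 39.5 to 54.3% in aged AAV-EGFP mice. The part of that share in the inhibitory neuron level was not tested. B3gnt2 was 24.95 ± 15.2 CPM in dentate gyrus granule neurons and 18.8 ± 5.83 in the upper-layer cortical cluster. It was lowest in Lamp5 interneuron-like nuclei at 4.37 ± 3.08 CPM. The mean was higher in aged than in young AAV-EGFP mice in 9 of 9 excitatory clusters, without overlap in 4, and in 3 of 3 inhibitory clusters, with overlap in each. These clusters come from the same mice, so they are not separate results. How often other genes separated the groups within a cluster was not counted. In the upper-layer cluster B3gnt2 was 21.6 ± 2.81 against 11.3 ± 1.07 CPM. That cluster made up 18.8 to 28.1% of excitatory nuclei in aged and 25.4 to 26.97% in young AAV-EGFP mice, so its share overlapped between the groups.

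Among all classes B3gnt2 (ENSMUSG00000051650, GRCm38 chromosome 11, 22759738 to 22860961) was highest in BECs, fibroblasts and pericytes or smooth muscle cells. BECs had 37.5 ± 15.5 CPM (57 UMIs), fibroblasts 34.3 ± 11.1 and pericytes or smooth muscle cells 33.7 ± 21.4, with no step among them that differed. In BECs, which had too few counts for the fit, the mice gave 7, 6 and 8 UMIs, then 8, 3 and 5, then 6, 7 and 7. Set against BEC totals, which differed between mice, the means were 32.3 CPM in young AAV-EGFP and 42.1 in aged AAV-EGFP. Aged AAV-B3GNT3 had 38.15 CPM, and single mice ran from 25.4 to 73.1 CPM. No difference was tested there. Inhibitory neurons had 21.8 CPM, above excitatory neurons at 11.9 in 9 of 9 mice, and microglia had 11.2, oligodendrocytes 9.18 and OPCs 4.96 CPM. Astrocytes were lowest at 4.01 ± 2.22 CPM, 1.48 times the free-RNA estimate. The gene overlaps Gm28048 on the same strand, which was counted on its own with 624 UMIs against 7697 for B3gnt2.

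B4galt1, the galactosyltransferase that completes N-acetyllactosamine units, was highest in microglia. The level there was 393 ± 119 CPM (1475 UMIs in 2142 nuclei), against 103 ± 21.95 CPM in BECs, 91.6 ± 31.5 in fibroblasts and 77.8 ± 14.4 in dentate gyrus granule neurons. The step from microglia to BECs differed, in 9 of 9 mice, and so did the step from dentate gyrus granule neurons to pericytes or smooth muscle cells at 32.1 CPM. Dentate gyrus granule neurons stood apart from the other neurons, of which the next highest cluster, the upper-layer one, had 22.9 ± 6.94 CPM. Astrocytes had 18.5 CPM, excitatory neurons 14.3 and inhibitory neurons 13.2. OPCs and oligodendrocytes were lowest, at 4.26 and 3.97 CPM. B4galt1 (ENSMUSG00000028413) lies on GRCm38 chromosome 4 at 40804602 to 40854005. A few nuclei like choroid plexus epithelium, 129 in 8 mice, were too few to test and had 149.5 ± 33.1 CPM (133 UMIs).

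In microglia the mice of each group ranged widely in B4galt1, from 268 to 539 CPM in the young AAV-EGFP group, from 278 to 642 in the aged AAV-EGFP group and from 302 to 466 in the aged AAV-B3GNT3 group, and neither comparison had an unadjusted p under 0.05. The only call was a lower level in oligodendrocytes with ageing. The values were 5.36, 4.13 and 8.53 CPM in the young AAV-EGFP group, 1.80, 2.18 and 1.53 in the aged AAV-EGFP group and 4.64, 5.80 and 1.88 in the aged AAV-B3GNT3 group. B4galt1 fell by 1.68 on the log2 scale with ageing (SE 0.46, edgeR adjusted p = 0.0234) from 6.01 ± 2.27 to 1.83 ± 0.327 CPM. It was 1.12 higher with treatment, with overlap (SE 0.47, adjusted p = 0.152), and this difference was called without aged AAV-B3GNT3 replicate 3 (log2 1.52, edgeR adjusted p = 0.0388). These rest on 169 UMIs in 20304 nuclei, 0.706 times the free-RNA estimate. That estimate was 3.42 to 5.63 CPM in aged AAV-EGFP and 5.33 to 6.38 in young AAV-EGFP, so it moved in the same direction. The 7 excitatory neuron markers in oligodendrocytes did too, with sums of 338 to 371 CPM in the young mice, 155 to 276 in aged AAV-EGFP and 270.3 to 327 in the treated mice and none at 0, and their part was not tested. After it was subtracted too few counts remained for a test. The call was also lost without young AAV-EGFP replicate 3, aged AAV-EGFP replicate 2 or aged AAV-EGFP replicate 3 (adjusted p up to 0.0853).

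Gcnt1, the enzyme that makes core 2 branches, had its highest level in microglia by a wide step. Microglia had 125 ± 21.4 CPM (468 UMIs), with 18.2% of nuclei holding a UMI (exact binomial interval 16.6 to 19.9%). The next class, BECs, had 8.69 ± 9.76 CPM (14 UMIs in 8 nuclei). The other 8 classes tested were at 2.73 CPM or less, and in excitatory neurons 56 UMIs stood against a free-RNA estimate of 66.65. The step from microglia to BECs differed in 9 of 9 mice. The mice had 126, 121 and 133 CPM in the young AAV-EGFP group, 161, 166 and 155 in the aged AAV-EGFP group and 128, 97.9 and 109 in the aged AAV-B3GNT3 group. The aged AAV-EGFP mice were above all others, but the difference with treatment was not called (log2 −0.53, SE 0.20, edgeR adjusted p = 0.135).

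Gcnt1 (ENSMUSG00000038843) lies on GRCm38 chromosome 19 at 17326141 to 17372844, on the minus strand, and RefSeq lists 3 starts for it. Counting by 3′ ends does not tell transcripts from these starts apart. The 3 promoter windows, from 250 bases before to 50 after each start, are printed 5′ to 3′ on the gene's strand (RefSeq, build GRCm38.p6) because the level of this gene dropped so far between microglia and the next class. Capitals mark AGGAAGT or its reverse complement, a form of the site bound by ETS factors, the family of the myeloid factor PU.1.

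Gcnt1 start 1 (chr19:17372795-17373094): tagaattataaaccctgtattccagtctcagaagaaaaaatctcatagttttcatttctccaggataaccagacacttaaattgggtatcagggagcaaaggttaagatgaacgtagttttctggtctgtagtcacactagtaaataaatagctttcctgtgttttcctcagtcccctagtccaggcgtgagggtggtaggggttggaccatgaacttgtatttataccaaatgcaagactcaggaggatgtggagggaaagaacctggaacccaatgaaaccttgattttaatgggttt
Gcnt1 start 2 (chr19:17356618-17356917): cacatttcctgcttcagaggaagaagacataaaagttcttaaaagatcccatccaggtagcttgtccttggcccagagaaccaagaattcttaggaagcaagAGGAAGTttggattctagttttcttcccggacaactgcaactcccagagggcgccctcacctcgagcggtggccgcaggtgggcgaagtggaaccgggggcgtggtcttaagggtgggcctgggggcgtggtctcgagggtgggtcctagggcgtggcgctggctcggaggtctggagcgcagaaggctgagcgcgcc
Gcnt1 start 3 (chr19:17339456-17339755): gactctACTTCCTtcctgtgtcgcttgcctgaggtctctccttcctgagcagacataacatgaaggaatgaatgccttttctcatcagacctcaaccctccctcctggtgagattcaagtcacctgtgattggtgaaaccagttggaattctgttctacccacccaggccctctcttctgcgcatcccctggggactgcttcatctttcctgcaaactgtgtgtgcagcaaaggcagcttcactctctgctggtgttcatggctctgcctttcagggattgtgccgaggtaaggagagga

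The letters occurred in the windows of starts 2 and 3 and not in that of start 1. Among 32851 promoter windows of the same length, 9.35% hold this motif on either strand. Over all 10 genes, 7 had a RefSeq window, 11 starts in all, and 2 of the 11 held it, both of Gcnt1. A second motif, ACAAAG, of the kind bound by SOX factors, was in 1 of 11 (Gcnt2) and in 18.7% of all windows. The motifs were picked with the levels known, and a match of letters is not a bound site.

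Gcnt2, the branching enzyme of poly-N-acetyllactosamine that makes the I antigen, was highest in cells of the vessel wall. Pericytes or smooth muscle cells had 425 ± 79.1 CPM (836 UMIs) and BECs 379 ± 183 (569 UMIs), which did not differ from each other. Fibroblasts followed at 151 ± 49.7 CPM, lower than BECs in 9 of 9 mice, then inhibitory neurons at 62.5, dentate gyrus granule neurons at 48.7, microglia at 48.3 and excitatory neurons at 33.3 CPM. Astrocytes had 15.3 CPM, and OPCs and oligodendrocytes were lowest, at 8.54 and 7.87 CPM. Among neurons the indirect-pathway striatal-like cluster had 122.5 ± 24.1 CPM, and the other neuron clusters 48.7 CPM or less. The choroid plexus-like nuclei had 182 ± 62.7 CPM. Gcnt2 (ENSMUSG00000021360, GRCm38 chromosome 13, 40859754 to 40960892) overlaps the antisense gene A730081D07Rik, which had 13198 UMIs against 20713 for Gcnt2. How strand was used in counting is not stated.

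With ageing Gcnt2 rose in BECs and fibroblasts. In BECs the mice had 335, 303 and 301 CPM in the young AAV-EGFP group, 406, 1052 and 543 in the aged AAV-EGFP group and 406, 276 and 439 in the aged AAV-B3GNT3 group. All 3 aged AAV-EGFP mice were above the young ones, and replicate 2 stood far above the other two. The means were 667 ± 341 and 313 ± 19.3 CPM (log2 difference 1.08, SE 0.31, edgeR adjusted p = 0.0451). The call was lost in 8 of 9 fits without 1 library. It was kept only without aged AAV-EGFP replicate 1, and the largest adjusted p, 0.295, came without replicate 2, where the log2 difference was 0.62. It was also lost with free RNA subtracted (log2 0.95, adjusted p = 0.256), with no upper limit on genes per nucleus (0.0933) and with only the 2 groups compared (0.0903). The 7 microglia markers summed to 103 to 149 CPM in the BECs of young AAV-EGFP mice, 205 to 246 in aged AAV-EGFP and 98.1 to 269 in aged AAV-B3GNT3, with none of the 7 at 0, and their part in this result was not tested. With treatment the level was 374 ± 86.5 CPM (log2 −0.84, SE 0.32, edgeR adjusted p = 0.167), and without aged AAV-EGFP replicate 1 this difference passed (adjusted p = 0.0102). In pericytes or smooth muscle cells, where the step from BECs did not differ, both aged groups lay within the range of the young one, with 371 to 614 CPM in the young AAV-EGFP group, 444 to 454 in the aged AAV-EGFP group and 499 to 599 in the aged AAV-B3GNT3 group.

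In fibroblasts Gcnt2 had 126, 95.7 and 128 CPM in the young AAV-EGFP group, 130, 258 and 230 in the aged AAV-EGFP group and 158, 149 and 144 in the aged AAV-B3GNT3 group. One aged AAV-EGFP mouse lay beside the young ones and the others above every mouse. The means were 206 ± 67.3 and 116 ± 18 CPM with ageing (log2 0.87, SE 0.22, edgeR adjusted p = 0.0253). This call was lost in 4 of 9 fits without 1 library, those without replicates 2 or 3 of young or aged AAV-EGFP (adjusted p up to 0.150), with free RNA subtracted (log2 0.81, adjusted p = 0.124) and with only the 2 groups compared. Markers of other cells were also higher in aged AAV-EGFP fibroblasts. The 7 microglia markers summed to 48.4 to 63.8 CPM in the young mice, 103 to 191 in aged AAV-EGFP and 54.8 to 138 in the treated mice, and the 8 astrocyte markers to 1328 to 1713, 1991 to 2209 and 1305 to 1680 CPM. None of these markers was at 0, and their part in the result was not tested. The treated mean of 150 ± 6.97 CPM was not called lower (log2 −0.50, SE 0.22, adjusted p = 0.260). Another 4 differences in Gcnt2 had an unadjusted p under 0.05 and no call. With ageing these were dentate gyrus granule neurons (65.5 ± 18.7 against 32.4 ± 14.5 CPM, log2 1.08, SE 0.31, edgeR adjusted p = 0.0961), microglia (63.2 ± 11.2 against 28.6 ± 13.3 CPM, log2 1.13, SE 0.39, adjusted p = 0.0595) and oligodendrocytes (5.15 ± 1.85 against 8.54 ± 1.80 CPM, log2 −0.76, SE 0.29, adjusted p = 0.0751). With treatment it was oligodendrocytes (9.85 ± 1.32 against 5.15 ± 1.85 CPM, log2 0.94, SE 0.28, adjusted p = 0.0574), at 0.826 times the free-RNA estimate. The dentate gyrus difference was called with no filter on low counts (edgeR adjusted p = 0.00199). The treatment difference in oligodendrocytes was called with DESeq2 (adjusted p = 0.0449), finer clustering (0.0452), no doublet removal (0.0367) and no filter (0.0129).

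St3gal1, which caps core 1 with sialic acid, was highest in BECs. They had 222.5 ± 128 CPM (360 UMIs), above fibroblasts at 35.5 ± 14.3 in 9 of 9 mice. Dentate gyrus granule neurons had 30.5 ± 18.4 CPM and oligodendrocytes 30.3 ± 14.4, which did not differ from each other. Pericytes or smooth muscle cells, which share the vessel wall with BECs, had only 8 UMIs, 3.80 ± 4.13 CPM. OPCs had 1.76 CPM, astrocytes 4.31, microglia 11.3 and inhibitory neurons 12.1. Excitatory neurons had 12.2 ± 3.89 CPM as a whole, but their clusters ran from 83.1 ± 15.7 CPM in the near-projecting deep-layer neuron-like cluster and 29.9 ± 11.6 in the layer 6 corticothalamic neuron-like cluster to 1.26 ± 0.869 in the cluster led by Rorb. St3gal1 (ENSMUSG00000013846) lies on GRCm38 chromosome 15 at 67102875 to 67176830, and no annotated gene overlaps it.

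In oligodendrocytes St3gal1 rose with ageing. The mice had 20.01, 16.5 and 8.53 CPM in the young AAV-EGFP group, 24.4, 53.2 and 38.7 in the aged AAV-EGFP group and 34.7, 30.0 and 46.3 in the aged AAV-B3GNT3 group. Every aged mouse of either group was above every young one. The means with ageing were 38.8 ± 14.4 and 15.02 ± 5.89 CPM (log2 1.34, SE 0.31, edgeR adjusted p = 0.0120). The call held with free RNA subtracted (adjusted p = 0.0405) and was lost only without aged AAV-EGFP replicate 2, where the adjusted p was 0.0561. The excitatory neuron markers in oligodendrocytes, given with B4galt1, were lower in aged AAV-EGFP, and their part was not tested. In inhibitory neurons the values went the other way, 17.9, 13.8 and 14.5 CPM in the young AAV-EGFP mice and 12.4, 7.93 and 6.11 in aged AAV-EGFP (log2 −0.83, SE 0.24, edgeR adjusted p = 0.0685). They also did in fibroblasts, at 29.6 ± 9.26 against 51.8 ± 16.7 CPM (log2 −0.82, SE 0.36, adjusted p = 0.189). At these values neither was called, but the difference in inhibitory neurons was called by DESeq2 (adjusted p = 0.0354), and by edgeR with no filter on low counts (0.00528) and without aged AAV-EGFP replicate 1 (0.0143). Within inhibitory neurons the aged AAV-EGFP mice lay below the young ones without overlap in 2 of 3 clusters. The clusters share the same mice, and the share of other genes without overlap was not counted.

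In BECs St3gal1 varied most among the aged AAV-EGFP mice. They had 132, 365 and 659 CPM, around the young AAV-EGFP values of 209, 186 and 219 and the aged AAV-B3GNT3 values of 210, 240 and 159. Neither ageing (log2 0.96, SE 0.38, edgeR adjusted p = 0.144) nor treatment (log2 −0.96, SE 0.39, adjusted p = 0.204) was called. Without aged AAV-EGFP replicate 1, the mouse with 45 BEC nuclei and 12 St3gal1 UMIs, both passed, at log2 1.34 with adjusted p = 0.00126 and log2 −1.33 with adjusted p = 0.00242.

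St3gal2, a second sialyltransferase of core 1 that also acts on gangliosides, had no step between neighbouring classes that differed. Means ran from 84.1 ± 24.3 CPM in fibroblasts (455 UMIs), 67.7 in microglia and 64.7 in BECs to 25.6 ± 3.96 in excitatory neurons (5599 UMIs). Between them lay pericytes or smooth muscle cells, dentate gyrus granule neurons, astrocytes and OPCs, from 44.35 down to 34.7 CPM, and oligodendrocytes and inhibitory neurons, at 26.99 and 26.6 CPM. Classes further apart in this order were not tested. The lowest mouse had 51.6 CPM in fibroblasts and the highest had 29.6 CPM in excitatory neurons. In excitatory neurons St3gal2 was lower with ageing. The mice had 29.9, 28.2 and 30.0 CPM in the young AAV-EGFP group, 26.01, 19 and 21.02 in the aged AAV-EGFP group and 25.7, 27.7 and 22.7 in the aged AAV-B3GNT3 group. All aged AAV-EGFP mice were below the young ones. St3gal2 fell by 0.42 on the log2 scale (SE 0.13, edgeR adjusted p = 0.0485), from 29.4 ± 0.989 to 22.01 ± 3.61 CPM. In this class the 7 oligodendrocyte markers summed to 190.0 to 219.5 CPM in the young mice, 111 to 154 in aged AAV-EGFP and 182 to 218 in the treated mice, none at 0, and their part was not tested. The call was close to the threshold. It was lost with free RNA subtracted (adjusted p = 0.0532), where the log2 difference was −0.44 and so no smaller, and with finer clustering (0.0503), the members among the variable genes (0.0507), no upper limit on genes per nucleus (0.0501) and only the 2 groups compared (0.0642), and kept with DESeq2 (0.0265), RLE size factors (0.0464), no doublet removal (0.0464) and no filter (0.0432). It was also lost in 7 of 9 fits without 1 library (up to 0.164), and among these fits it was kept only without aged AAV-EGFP replicate 1 or aged AAV-B3GNT3 replicate 3. St3gal2 (ENSMUSG00000031749, GRCm38 chromosome 8, 110919922 to 110972480) overlaps Gm26816 on the opposite strand, which had 8854 UMIs against 16134.

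St6galnac3, which adds α2,6-linked sialic acid to sialylated core 1 and to gangliosides, was highest in oligodendrocytes. They had 3364 ± 823 CPM (150657 UMIs), and 96.8% of their nuclei held a UMI. BECs followed at 1656 ± 458 CPM (2711 UMIs), then dentate gyrus granule neurons at 977 ± 204, each step down differing in 8 or 9 of 9 mice. OPCs had 308.5 ± 67.9 CPM and excitatory neurons 292 ± 41.4, which did not differ from each other, and inhibitory neurons 121 ± 29.6. The cluster led by Gm2164, Fam19a1 and Npsr1 was the highest of the excitatory neurons with 651.5 ± 125 CPM. The gene (ENSMUSG00000052544) spans 526.9 kb on GRCm38 chromosome 3, 153198266 to 153725174, and whether intronic reads were counted was not determined.

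In the other 4 classes, microglia, fibroblasts, pericytes or smooth muscle cells and astrocytes, St6galnac3 was at 72.7 to 90.9 CPM. In each of these 36 pairs of class and library the observed level was below the level estimated from free RNA, and in the 54 pairs of the 6 other classes it was above. Observed UMIs were 0.610 times the estimate in astrocytes, 0.629 in fibroblasts, 0.488 in pericytes or smooth muscle cells and 0.465 in microglia. How much of the St6galnac3 count in these 4 classes came from their own nuclei was not determined, and after subtraction none was left to test.

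**Figure D4:**
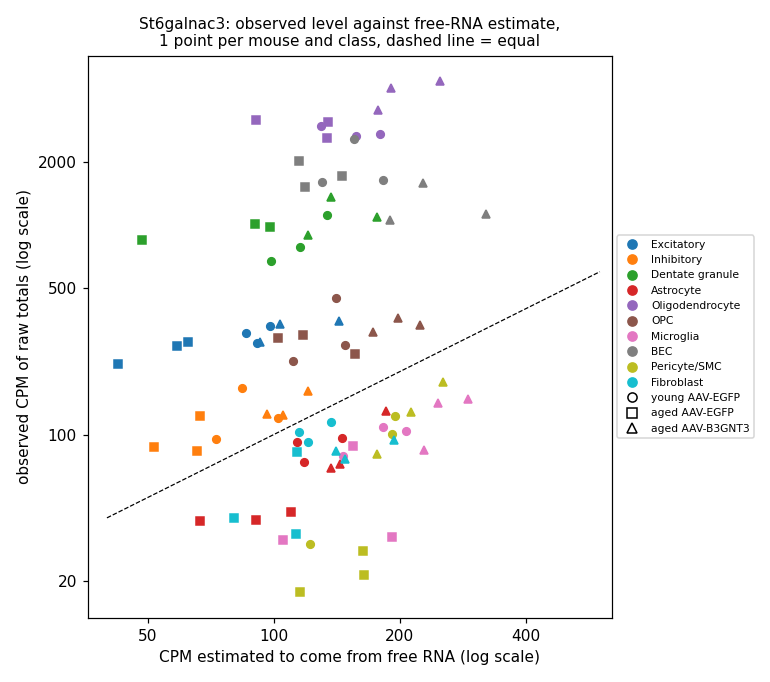
Observed St6galnac3 level (CPM of raw totals, vertical axis, log scale) against the level estimated to come from free RNA (horizontal axis, log scale), with 1 point per mouse and class, colour for class and symbol for group. All points of astrocytes, microglia, pericytes or smooth muscle cells and fibroblasts lie below the dashed line of equality, and all others above it.

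All 6 calls in St6galnac3 were in those 4 classes. With ageing it fell by 1.13 on the log2 scale in astrocytes (SE 0.23, edgeR adjusted p = 0.00571), from 91.4 ± 11.4 to 41.6 ± 4.26 CPM. It fell by 1.13 in fibroblasts (SE 0.28, adjusted p = 0.0210) and by 2.07 in pericytes or smooth muscle cells (SE 0.55, adjusted p = 0.0142). In microglia the difference was −1.01 and not called (SE 0.34, adjusted p = 0.0559), though it was with no filter on low counts (0.00865) or no upper limit on genes (0.0244). With treatment it was higher in pericytes or smooth muscle cells, with 88.3, 200 and 141 CPM in aged AAV-B3GNT3 against 33.0, 24.9 and 20.2 in aged AAV-EGFP (log2 2.56, SE 0.52, adjusted p = 0.00783). That contrast rests on 2, 4 and 4 UMIs in the aged AAV-EGFP mice. It was higher in microglia, with overlap (log2 1.32, SE 0.31, adjusted p = 0.0161), and in astrocytes (log2 1.05, SE 0.23, adjusted p = 0.0191). In fibroblasts it was 0.81 higher and not called (SE 0.28, adjusted p = 0.152). In fits without 1 library the ageing call in astrocytes was kept in 9 of 9. The ageing call in pericytes or smooth muscle cells was lost without young AAV-EGFP replicate 1 or aged AAV-EGFP replicate 2 or 3 (adjusted p up to 0.116), and that in fibroblasts without replicate 2 or 3 of either AAV-EGFP group (up to 0.171) and with only the 2 groups compared (0.0527). The treatment calls were lost without aged AAV-B3GNT3 replicate 2 or aged AAV-EGFP replicate 3, and in astrocytes and microglia also without aged AAV-EGFP replicate 2 (adjusted p up to 0.143). The free-RNA estimate for this gene moved alongside, from 113 to 146 CPM in young AAV-EGFP astrocytes to 66.7 to 110 in aged AAV-EGFP and 137 to 185 in aged AAV-B3GNT3. In each of the 4 classes the estimate lay above the level in every library, so the size of its change was not compared with that of the level. In pericytes or smooth muscle cells the mean estimate was 169 CPM in the young mice, 148 in aged AAV-EGFP and 214 in the treated mice, beside observed means of 84.4, 22.2 and 129. In fibroblasts it was 124, 102 and 161 CPM beside 103, 52.1 and 84.9, and in microglia 179, 150 and 255 CPM beside 97.5, 50.5 and 125. Its part in these calls was not tested. The 7 oligodendrocyte markers were also lower in aged AAV-EGFP. In astrocytes they summed to 425 to 566 CPM in the young mice, 248 to 347 in aged AAV-EGFP and 392 to 425 in the treated mice. In fibroblasts the sums were 442 to 517, 308 to 427 and 438 to 503 CPM, in pericytes or smooth muscle cells 638 to 707, 402 to 554 and 529 to 723, and in microglia 640 to 897, 429 to 704 and 649 to 746, so that aged AAV-EGFP overlapped the treated mice in pericytes or smooth muscle cells and both other groups in microglia. None of these markers was at 0, and their part in the calls was not tested. The 9 BEC markers in pericytes or smooth muscle cells summed to 258 to 304 CPM in the young mice, 569 to 1287 in aged AAV-EGFP and 335 to 529 in the treated ones, with none at 0, and their part was not tested either.

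In the classes with most St6galnac3 no difference was called. Oligodendrocytes had 2756, 2742 and 3126 CPM in the young AAV-EGFP group, 2645, 3293 and 3215 in the aged AAV-EGFP group and 4347, 4656 and 3429 in the aged AAV-B3GNT3 group. The treated mice were all above the others, with 4144 ± 638 against 3051 ± 354 CPM in aged AAV-EGFP (log2 0.44, SE 0.15, edgeR adjusted p = 0.0853). DESeq2 called this difference (adjusted p = 0.0402). In BECs the treated mice were lowest, with 1199, 1297 and 1779 CPM, against 2447, 2169 and 1868 in aged AAV-EGFP and 2974, 1936 and 1867 in young AAV-EGFP. That difference was not called (log2 −0.60, SE 0.25, edgeR adjusted p = 0.219). Over whole libraries, all barcodes counted, St6galnac3 made up 491 to 597 CPM in the young AAV-EGFP group and 481 to 555 in the aged AAV-EGFP group. It made up 691 to 865 CPM in the aged AAV-B3GNT3 group. Such a level also follows the mix of classes in a library, and the part of that mix was not tested.

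**Figure D5:**
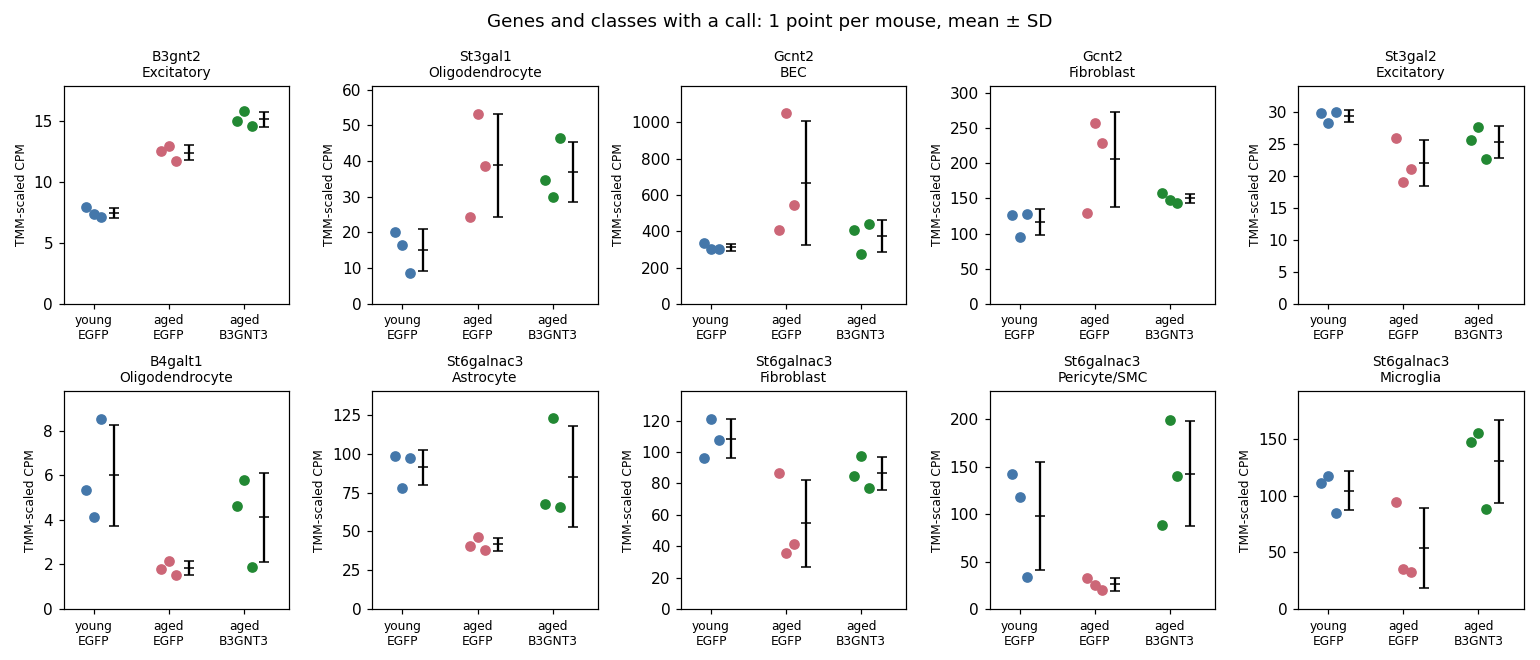
TMM-scaled CPM of each mouse (vertical axis, from 0) in the 3 groups, for the 10 combinations of gene and class with a call in either comparison, with mean ± SD beside the points. B3gnt2 in excitatory neurons separates all 3 groups, while Gcnt2 in BECs rests on wide spread among the aged AAV-EGFP mice.

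The members were also counted in 4 lists by role. The core 1 pair had 0 of 12 tests called in either comparison. The extension enzymes had 1 higher and 1 lower of 15 with ageing, the branching enzymes 2 higher of 11, and the sialyltransferases 1 higher and 4 lower of 27. Treatment added 3 higher among the 27 tests of sialyltransferases and 0 elsewhere. Over all tests 9.73% were called with ageing and 3% with treatment. With free RNA subtracted 1 extension, 0 branching and 1 sialylation call were left with ageing and 0 with treatment. The 3 treatment calls could not be tested then, nor could the ageing calls of B4galt1 and St6galnac3.

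The wider pathway was read from 6 lists of 84 other genes. With ageing, 12 of their 493 tests were called higher and 46 lower (11.8%, where all tests gave 9.73%), and with treatment 7 higher and 7 lower (2.84%, where all tests gave 3%). With free RNA subtracted, 16 and 3 tests were called. Of these 3, 1 was a rise in the other sialyltransferases, a list with 0 higher and 1 lower with treatment before subtraction. The share of all genes called after subtraction was not counted. The GalNAc transferases, which start the chain, had 1 higher and 23 lower of 115 with ageing, with a median log2 difference of −0.33, and 4 higher and 0 lower with treatment. After subtraction 6 and 0 of these were called. The other core, branching and extension enzymes had 1 higher and 2 lower of 87 with ageing and 0 higher and 4 lower with treatment. Other sialyltransferases and the fucosyl- and sulfotransferases had 1 and 2 higher and 6 and 5 lower with ageing, of 72 and 51 tests. With treatment the former had 1 lower, and the latter 1 higher and 1 lower. Sugar nucleotide genes had 4 higher and 1 lower of 66 with ageing and 0 with treatment. Carrier proteins had 3 higher and 9 lower of 102 with ageing and 2 higher and 1 lower with treatment.

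Some of these called genes kept their call after free RNA was subtracted. Fut2, a fucosyltransferase that makes the H antigen, rose with ageing in excitatory neurons from 1.97 ± 0.244 to 5.32 ± 1.08 CPM (log2 1.43, SE 0.24, edgeR adjusted p = 0.00725, 0.0100 after subtraction). It rose in inhibitory neurons too, from 1.81 ± 0.406 to 5.47 ± 1.36 CPM (adjusted p = 0.0240, 0.0473 after). St6galnac1, which caps the first sugar, rose in excitatory neurons from 0.0826 to 0.587 CPM, on 102 UMIs over all mice (log2 2.83, SE 0.77, edgeR adjusted p = 0.0314, 0.0480 after). Slc35a1, which carries CMP-sialic acid into the Golgi, rose there from 20 ± 1.29 to 30.0 ± 4.82 CPM (adjusted p = 0.0261, 0.0362 after). Uap1, which makes UDP-N-acetylglucosamine, fell by 0.38 on the log2 scale (adjusted p = 0.0375, 0.0313 after). With treatment Ncan, the proteoglycan neurocan, rose in excitatory neurons from 41.8 ± 2.85 to 60.8 ± 4.58 CPM (log2 0.54, SE 0.10, edgeR adjusted p = 0.0304, 0.0347 after). In this class the 7 oligodendrocyte markers summed to 111 to 154 CPM in aged AAV-EGFP and 182 to 218 in the treated mice. The 5 inhibitory neuron markers summed to 13.9 to 15.2 and 17.4 to 24.8 CPM. The 8 astrocyte markers overlapped, at 365 to 466 and 374 to 492 CPM. Their part was not tested.

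The other named genes lost their call, or could not be tested, after that subtraction. With ageing B4galt6 in OPCs (154 ± 65.6 against 74.9 ± 4.77 CPM, adjusted p = 0.0206), Slc35a2 in astrocytes (25.3 ± 3.91 against 15.2 ± 1.17 CPM, adjusted p = 0.0246) and Lrp1 in microglia (417 ± 35.1 against 227 ± 102 CPM, adjusted p = 0.0178) rose by edgeR. Mcam in pericytes or smooth muscle cells rose from 126 ± 17.6 to 219 ± 121 CPM with ageing (adjusted p = 0.0422) and was at 84.9 ± 3.09 CPM in aged AAV-B3GNT3, called lower (adjusted p = 0.00909). The summed BEC markers in this class, given above, were highest in the aged AAV-EGFP group, and their part in the Mcam result was not tested. Bcan in excitatory neurons rose with treatment from 10.4 ± 0.771 to 17.0 ± 1.33 CPM (adjusted p = 0.0327). The part of the marker sums given with Ncan was not tested for Bcan either. With treatment B3galt2 fell in oligodendrocytes (adjusted p = 0.0375), as did Gcnt7 in microglia (0.0471), St6gal2 in excitatory neurons (0.0467) and Fut8 in astrocytes (0.0449). Genes called lower with ageing in classes where nothing was left to test were Gcnt4, St6galnac5 and Vcan in oligodendrocytes, B3galt1, St6galnac5, Fut9 and Lrp8 in microglia, and Fut9 in fibroblasts. Fut9 in microglia was called higher again with treatment, at 127 ± 11.1 against 66.6 ± 22.4 CPM (edgeR adjusted p = 0.0264). Most of the differences that could still be tested kept their size after subtraction while the adjusted p rose above 0.05. The log2 difference went from 1.07 to 1.17 for B4galt6 (edgeR adjusted p = 0.0539 after), from 0.74 to 0.75 for Slc35a2 (0.0914), from 0.84 to 0.83 for Lrp1 (0.141), from −0.96 to −1.04 for B3galt2 (0.121), from −0.75 to −0.79 for Fut8 (0.117) and from −0.48 to −0.43 for St6gal2 (0.0673). For Mcam it went from −1.52 to −1.47 with treatment (0.0566) and from 0.94 to 0.78 with ageing (0.230), and for Bcan from 0.70 to 0.59 (0.395).

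For each gene the 3 most alike were taken from 15168 genes by Pearson's r of log2(CPM + 1) over 90 pairs of class and mouse. The points share libraries, mice and class totals, so r is a description. Gcnt2 was most like Cyth3 (r = 0.91), Grb10 (0.87) and Arhgap29 (0.86), and B3gnt2 most like Gcnt2 itself (0.76), Grb10 and Mprip. Gcnt1 was most like the microglial genes Nlrp1a (0.88), Csf2rb (0.88) and Hcls1 (0.87). B4galt1 was most like Rreb1 (0.83), Il6ra (0.83) and Arpc2 (0.79). C1galt1 was most like Arhgap31 (0.89), Golim4 (0.85) and Ostf1 (0.83). Among the genes most like St3gal1 were Slc6a6 (0.80) and Tspan5 (0.78), both highest in BECs. St6galnac3 was most like Slc44a1 (0.88), 1700094M23Rik (0.87) and Ppp1r16b (0.85), each highest in oligodendrocytes. St3gal2 (Gm10974, Clint1 and Slc12a7, r from 0.78 to 0.80) and C1galt1c1 (Smim7, Ttc32 and Oard1, 0.63 to 0.68) had less close matches. For B3gnt3 the nearest were Gm41030, Gm32688 and Myct1, with r of 0.63, 0.61 and 0.59 on very few counts.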

How the data were processed

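Nuclei from 9 libraries, 1 per mouse, were sorted as Hoechst-positive singlets and sequenced by 10x 3′ chemistry. The authors deposited UMI counts per gene and barcode. The labels name Cell Ranger 4.0.0 and mm10, while the matrix headers give 7.2.0. Whether introns or strand were used in counting is not given in the sources used here. Barcodes with 200 to 5000 genes and up to 10% mitochondrial UMIs were kept, predicted doublets were removed (0.8% per 1000 barcodes), and the nuclei were clustered (2000 variable genes, members left out; 15 components; 20 neighbours; Leiden resolution 0.3, leidenalg 0.10.2). A cluster was named when at least 3 markers passed 2 times the median cluster and 10% of nuclei. The rule for dentate gyrus granule neurons was added after the data were seen. In all, 4519 nuclei stayed unnamed, and 734 barcode sequences occurred in more than 1 library. Counts were summed per mouse and class and fitted over all 9 mice with edgeR 4.0.16 (R 4.3.3; TMM, quasi-likelihood, filterByExpr with a minimum count of 10, Benjamini-Hochberg over all genes of a class). Only the edgeR fit was tested on simulated counts, for the ageing comparison in oligodendrocytes and BECs. Neighbouring classes were compared by exact sign flips over 512 patterns with 0.5 counts added (smallest p 0.00391). All 10 members are given in every class by value or range, and a fold change is given where the unadjusted p was under 0.05. From each pathway list up to 2 rises and 2 falls are named. Alternatives were DESeq2 1.42.0, other filters, other clusterings, free RNA subtracted, a replicate block and leaving out each library. Promoters came from RefSeq tables and gene positions from the GENCODE annotation of GRCm38. The members and lists were chosen with earlier results of these data known. One of the genes most like a member is not reported here.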

Additional observations from a re-analysis of the deposited data

Results flagged for a closer look

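St3gal1 with ageing went opposite ways between classes. Every aged AAV-EGFP mouse was above every young AAV-EGFP mouse in oligodendrocytes (log2 1.34) and below in inhibitory neurons (log2 −0.83), 2.17 apart. It was below without overlap in fibroblasts and astrocytes too. Astrocytes held 127 St3gal1 UMIs, 1.45 times the free-RNA estimate. Their mean went from 6.01 CPM in young to 3.68 in aged AAV-EGFP, and the estimate from 3.73 to 2.56. The part of free RNA in that fall was not tested. In BECs, where St3gal1 was highest, the aged AAV-EGFP mice lay around the young ones and no difference was called. Gcnt2 with ageing was higher without overlap in fibroblasts (log2 0.87), dentate gyrus granule neurons, BECs and microglia, and slightly lower without overlap in excitatory neurons (log2 −0.09, edgeR adjusted p = 0.523), 0.96 apart between fibroblasts and excitatory neurons. In oligodendrocytes, with 0.826 times the UMIs estimated from free RNA, it was at log2 −0.76, with overlap (edgeR adjusted p = 0.0751). St6galnac3 with treatment was higher without overlap in pericytes or smooth muscle cells (log2 2.56), astrocytes and oligodendrocytes, and lower in BECs (log2 −0.60), 3.16 apart between pericytes or smooth muscle cells and BECs. In pericytes or smooth muscle cells and astrocytes it was below the free-RNA estimate in every library, with 0.488 and 0.610 times the estimated UMIs. How much of it came from their own nuclei was not determined, and neither difference between St6galnac3 in BECs nor in oligodendrocytes was called. The difference between classes was not tested for any of these 3 genes. They were picked for having classes without overlap in both directions. Of the 65 tests of members, 21 had groups without overlap with ageing and 13 with treatment. The share over all genes was not counted.

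Barcodes removed before clustering also held B3gnt3 UMIs. There were 11 in aged AAV-B3GNT3, 5 in aged AAV-EGFP and 5 in young AAV-EGFP, of 41907912, 48996714 and 43133997 UMIs in 2548, 2509 and 2398 removed barcodes. By replicate they were 3, 2 and 6 in aged AAV-B3GNT3, 2, 0 and 3 in aged AAV-EGFP and 2, 1 and 2 in young AAV-EGFP. The groups overlapped, 6 of the 11 came from aged AAV-B3GNT3 replicate 3, and no difference was tested. Groups of 3 mice were too small for a check of single outlying mice.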

How the results depend on the processing

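With free RNA subtracted the 9 calls with ageing became 2, in 53 tests that no longer held those of the B4galt1 and St6galnac3 calls. The calls became 14 with no filter on low counts (98 tests) and 4 with only the 2 groups compared. They were 8 to 10 under the other alternatives with all mice, and 3 to 15 without 1 library, with 3 without aged AAV-EGFP replicate 2 or 3, 4 and 5 without young AAV-EGFP replicate 3 and 2, and 15 without aged AAV-EGFP replicate 1. With free RNA subtracted the 3 calls with treatment were not tested, and 0 others were called (7 at an unadjusted p under 0.05 by edgeR). The calls with treatment became 5 with DESeq2 and 5 with no filter. They were 0 to 7 without 1 library, with 0 without replicate 2 of aged AAV-B3GNT3 or 3 of aged AAV-EGFP (10 and 13 at an unadjusted p under 0.05), 1 without aged AAV-EGFP replicate 2, 7 without aged AAV-EGFP replicate 1 and 5 without aged AAV-B3GNT3 replicate 3. The 25 neighbouring pairs that passed, those set aside above included, became 44 with 2 counts added. They were 23 to 37 otherwise, 21 to 24 without 1 library. The B3gnt3 difference with treatment was 4.46 to 14.6 CPM without 1 library and that with ageing −18.1 to −6.77 CPM; with 0 UMIs in every aged AAV-EGFP mouse the sign could not change. For the 37 differences in single members, 607 alternative fits gave the same side of the threshold, 51 lost a call, 31 gained one and 0 changed sign. Where a call changed and no reason is given, the cause was not tested. The shares of all genes called under these alternatives were not counted, so the changes in number are not read as particular to the members.

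Replicate numbers are shared between groups, and they were not taken to pair mice. The correlation of the deviations of same-numbered mice was −0.256 to 0.286, over 0.1 in 21 of 90 pairs, and in 82 of 180 comparisons of a library with another group it matched best with its own number, more often than an even choice among the 3 numbers would give. With the replicate block 10 differences were called with ageing and 4 with treatment. With ageing St3gal2 in excitatory neurons and Gcnt2 in BECs were not called under the block (edgeR adjusted p = 0.0568 and 0.0744), while Gcnt2 in dentate gyrus granule neurons (0.0307), St3gal1 in inhibitory neurons (0.0470) and St6galnac3 in microglia (0.0320) were. With treatment Gcnt2 in oligodendrocytes was called as well (0.0385).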
